A study of Mus musculus with 354 samples.

Results

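Heme synthesis and breakdown were followed here through 9 liver enzymes: Alas1, Alad, Uros, Urod, Cpox, Ppox and Fech, which build heme, and Hmox1 and Blvrb, which act in its breakdown. They were chosen by name, as the genes of 16 probe sets annotated to exactly 1 of these symbols, out of 16670 genes with such a probe set among 42597 probe sets on the array. All 9 passed the filter on dim probe sets and were tested with 14125 genes in all. Each gene is represented by its brightest probe set.

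The samples were livers of male Collaborative Cross mice, a panel of recombinant inbred lines bred from several founder strains, taken 24 h after treatment with vehicle (Control, 179 animals) or tolvaptan (175 animals), a vasopressin V2 receptor antagonist. Both treatments were given in each of 45 strains, and of the 90 groups 85 held 4 animals, 4 held 3 and 1 held 2. The mice were about 8 to 10 weeks old at dosing and had been fasted for about 18 h before necropsy, in both arms. RNA came from diced median lobe, so each value is that of whole liver tissue, in which fewer cells of a type and less RNA per cell cannot be told apart.

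Heme is built from glycine and succinyl-CoA by a chain of enzymes that starts and ends in the mitochondrion and passes through the cytosol. In liver much of it goes to cytochromes P450, and Alas1, which makes 5-aminolevulinate, sets the rate of the chain and is held down by heme itself. Heme oxygenase opens the ring to biliverdin, carbon monoxide and iron, and biliverdin reductases then reduce biliverdin.

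One array per animal was scanned on 6 dates, called scans 1 to 6. Scan 1 held 90 arrays, 1 per strain and treatment, and scans 2 to 6 held 264. The deposited log2 intensities had array medians between 2.81 and 3.02. Hepatocyte markers were bright in both arms, with a list mean of 12.88 (median over Control arrays) and 12.86 (tolvaptan) on the log2 scale. On 34 arrays (27 Control, 7 tolvaptan, in 19 strains; 22 in scan 2) the pattern of 500 probe sets that differ between strains went against the labelled strain: their correlation with the other arrays of that strain was at most 0.325, against at least 0.649 for every other array. They were kept under their labels, and results are given with and without them where they touch a call.

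The promoters of the 2 genes that passed the averaged test below are shown because they are the stretches in which a shared sequence feature could be looked for. RefSeq promoters (GRCm38.p6) matched 7 of the 9 genes with 11 start sites; Hmox1 and Fech were not matched. The sequences are the 250 bases before the start site farthest upstream, for Alas1 at chr9:106247955-106248204 (minus strand) and for Blvrb at chr7:27447728-27447977 (plus strand), each written 5′ to 3′ along the gene. Capitals mark matches to TGANNNNGC, the core of the antioxidant response element, to the NRF1 palindrome (GCGC, any 2 bases, GCGC) or to TGACGTCA, the cyclic AMP response element, on either strand.
Alas1: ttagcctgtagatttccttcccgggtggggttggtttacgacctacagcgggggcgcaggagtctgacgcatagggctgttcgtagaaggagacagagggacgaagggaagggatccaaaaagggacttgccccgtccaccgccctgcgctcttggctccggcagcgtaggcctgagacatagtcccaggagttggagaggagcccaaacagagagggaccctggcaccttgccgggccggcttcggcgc
Blvrb: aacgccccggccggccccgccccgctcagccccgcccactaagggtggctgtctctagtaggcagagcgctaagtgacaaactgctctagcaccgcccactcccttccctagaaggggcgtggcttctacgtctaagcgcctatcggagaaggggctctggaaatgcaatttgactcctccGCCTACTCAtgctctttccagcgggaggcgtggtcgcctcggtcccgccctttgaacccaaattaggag
The Alas1 window held none of these 3 motifs. The Blvrb window held 1 match to the antioxidant core, GCCTACTCA (read on the opposite strand), beginning 69 bases before the start. A second Alas1 start, whose window overlaps sequence transcribed from the first and is not printed, had 2 matches to the NRF1 palindrome, GCGCGTGCGC and GCGCATGCGC, beginning 224 and 195 bases before it. Uros had 1 such match, GCGCCTGCGC, 47 bases before its upstream start. The NRF1 palindrome was thus found at 2 of the 11 starts (2 of the 7 genes) and in 4.98% of all 32851 promoters over the same 250 bases. The antioxidant core was found at 5 of the 11 starts (Blvrb, Uros and Cpox) and in 35.2% of all promoters. The cyclic AMP element was found in none of the 11 starts (1.55% of all promoters) and the TATAAA box in none (12.4%). The letters CCAAT were found at 4 of the 11 starts, of Ppox, Alad and Urod (33.8% of all promoters). None of these motifs overlaps another in the printed windows. A match is a run of letters and does not show binding.

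Averaged over the 45 strains, 2 of the 9 genes were higher after tolvaptan and none was lower (limma, Benjamini-Hochberg adjusted p under 0.05 over all genes). Over all 14125 genes 0.496% were called in either direction, and 0.326% higher. Alas1, the rate-limiting enzyme, and Blvrb, which reduces flavins and biliverdin, were the 2. The median change of the 9 was 0.03 on the log2 scale, against 0.00027 over all genes tested. Estimates were above 0 for 7 of the 9 and for 7110 of all 14125 genes.

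Alas1 had the larger change. Control animals ranged from 8.54 to 12.23 with a median of 10.78 (log2 intensity), and tolvaptan animals from 8.21 to 12.37 with a median of 11.12. The arms overlapped almost fully, and what moved was the centre of a broad distribution. Means were 10.69 ± 0.79 (SD, n = 179) and 11.03 ± 0.76 (SD, n = 175). The change averaged over strains was 0.35 ± 0.07 (SE) on the log2 scale, a 1.27-fold rise (limma adjusted p = 0.00376), and Alas1 was higher in 34 of 45 strains. Being higher in at least 34 strains was seen for 0.34% of genes. By p it ranked 17 among all genes tested, and 10 among all genes by the size of its rise.

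Blvrb was higher in 35 of 45 strains. Control animals ranged from 8.21 to 10.70 with a median of 9.61, and tolvaptan animals from 8.12 to 10.54 with a median of 9.77 (log2 intensity). Means were 9.49 ± 0.52 (SD, n = 179) and 9.67 ± 0.53 (SD, n = 175), again with overlapping arms. The averaged change was 0.17 ± 0.04 (SE), a 1.13-fold rise (limma adjusted p = 0.00563). Blvra, another biliverdin reductase, was not called (0.06 ± 0.03, limma adjusted p = 0.493).

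The other 6 synthesis enzymes did not pass. Alad, which joins 2 aminolevulinate molecules into porphobilinogen, had a change of -0.03 ± 0.04 (SE), with medians of 10.43 in Control and 10.44 in tolvaptan animals (limma adjusted p = 0.887). Uros, which closes the tetrapyrrole ring into uroporphyrinogen III, had 0.10 ± 0.04 and was higher in 33 strains, but its adjusted p by limma was 0.295; its 95% interval ran from 0.02 to 0.18. Urod, which trims the acetate side chains, had 0.03 ± 0.02 (limma adjusted p = 0.660). Cpox and Ppox, the mitochondrial oxidases, had -0.01 ± 0.03 and 0.03 ± 0.04. Fech, which inserts iron, had 0.03 ± 0.02. The intervals limit how far these could have moved on average: the highest upper bound among these 6 was 0.18 (Uros) and the lowest lower bound was -0.12 (Alad). Hmox1, the inducible heme oxygenase, had 0.07 ± 0.06 (limma adjusted p = 0.799), was higher in 23 strains, and had medians of 5.67 in Control and 5.70 in tolvaptan animals.

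**Figure D1:**
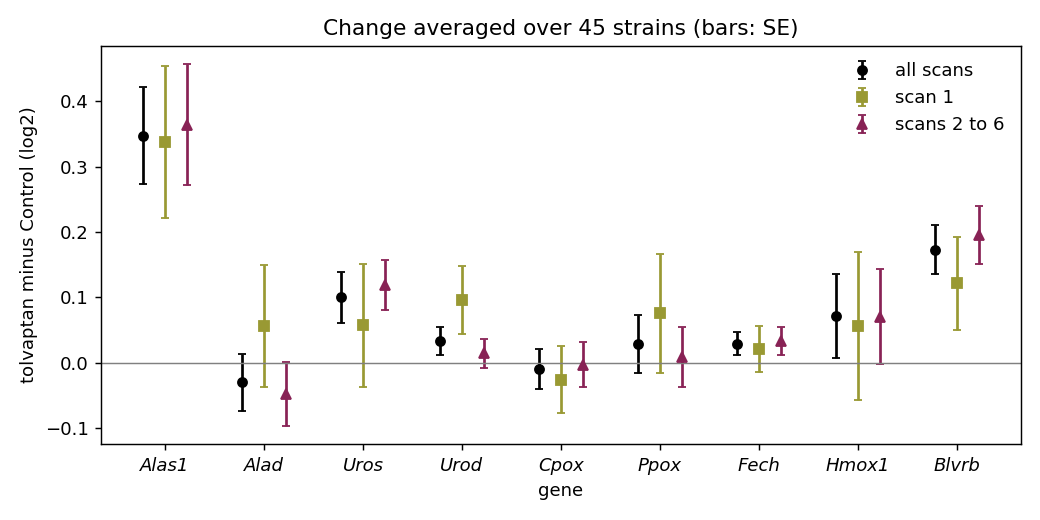
Change in log2 intensity (tolvaptan minus Control, vertical axis) averaged over 45 strains for each gene, for all scans, for scan 1 and for scans 2 to 6, with bars of 1 SE. Alas1 and Blvrb lie farthest above 0 in all 3 series. Uros, Urod, Ppox, Fech and Hmox1 also lie above 0 in all 3, with smaller changes, and Alad and Cpox do not.

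Scans held both treatments, so the changes were also taken within them. Alas1 changed by 0.34 ± 0.12 in scan 1 (limma unadjusted p = 0.00543, adjusted p = 0.99999) and by 0.36 ± 0.09 in scans 2 to 6 (adjusted p = 0.0242). Blvrb changed by 0.12 ± 0.07 in scan 1 (limma adjusted p = 0.99999) and by 0.20 ± 0.04 in scans 2 to 6 (adjusted p = 0.00687). Both genes had an estimate above 0 in each of the 6 scans taken alone. These ran from 0.20 (scan 2) to 0.59 (scan 4) for Alas1 and from 0.09 (scan 2) to 0.33 (scan 4) for Blvrb. Uros, which did not pass the averaged test, was also above 0 in each scan, from 0.05 (scan 2) to 0.25 (scan 4). How many of all genes had this was not counted. In scan 1 limma called 0 genes of 14125 (358 had an unadjusted p under 0.05), and in scans 2 to 6 it called 1.12%.

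Not every subset of the animals kept these calls. Leaving out replicate 1 of every group, numbered in accession order, gave 0.31 for Alas1 and 0.15 for Blvrb, and neither was called (limma adjusted p = 0.376 for both). Without replicate 2 (limma adjusted p = 0.259 for Blvrb) or without scan 2 (0.359) Alas1 was called and Blvrb was not. Both were called without the arrays off their labelled strain. Without those 34 arrays Alas1 changed by 0.32 ± 0.07 (limma adjusted p = 0.0121) and Blvrb by 0.14 ± 0.04 (adjusted p = 0.0316). In the 26 strains that held none of them, Alas1 changed by 0.39 ± 0.08 (adjusted p = 0.000969) and Blvrb by 0.22 ± 0.05 (adjusted p = 0.00143). Other cell types were followed through marker lists. Of the red cell and erythroid list 4 of 14 genes were tested and none was called, and its mean level ranged from 4.11 to 6.53 in Control and from 4.19 to 6.92 in tolvaptan arrays. Of the Kupffer cell list 10 of 10 were tested and none was called, with ranges of 4.198 to 7.02 and 4.47 to 7.00; of the neutrophil list 3 of 5 were tested and none was called, with ranges of 2.75 to 7.15 and 2.75 to 8.60. Of 6 sinusoidal endothelium markers Stab2, a scavenger receptor, was lower by limma (-0.19 ± 0.04, adjusted p = 0.00104), and the list ranged from 5.57 to 7.15 and from 5.42 to 7.33. With the mean of any 1 of these 4 lists in the model, Alas1 changed by 0.33 to 0.36 and Blvrb by 0.17 to 0.18, and both stayed called. Over strains the Blvrb change had correlations of -0.41 with the change of the hepatocyte list, -0.34 with that of the endothelial list and -0.28 with that of the red cell list (45 strains, same arrays); the hepatocyte list was not used as a covariate.

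The change was then compared between strains. For none of the 9 genes did the size of the change differ between strains by limma's interaction F test: the lowest adjusted p was 0.787 (Urod), and 0.0212% of all genes passed. The 45 Alas1 changes had an SD of 0.51, and the change in a strain of 8 animals had an SE of 0.49. In single strains limma called 1 of 405 gene and strain pairs, Alad in OR5119, against 0.281% of all gene and strain pairs and 1.9% of genes in OR5119.

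The 4 largest and 3 smallest Alas1 changes are given by animal. Without the arrays off their strain the largest was instead IL16441 (1.56, against 0.97 with its 2 such arrays), and AU8021 was still the smallest (-0.80). In AU8004 the Control animals had Alas1 at 10.73, 9.87, 10.45 and 10.15, and the tolvaptan animals at 11.51, 11.33, 11.83 and 11.88 (log2 intensity). The groups did not overlap, and the change was 1.34 ± 0.49 (SE; exact permutation p = 0.0286, two-sided, the smallest that 4 against 4 allows; limma adjusted p = 0.582). Tolvaptan animals lay wholly above Control animals in 1 other strain, AU8048 (0.72), and wholly below in none; over all genes 1.55% of pairs lay wholly above and 1.5% wholly below. By limma's unadjusted p under 0.05 Alas1 was higher in 6 strains and lower in none, against 2.75% and 2.7% of all gene and strain pairs. In OR3393 Control animals had 9.10, 9.54, 9.47 and 9.02, and tolvaptan animals 9.08, 11.12, 11.85 and 10.39. Here 3 tolvaptan animals were above every Control animal and 1 was not (1.33 ± 0.49, limma adjusted p = 0.436).

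In IL16557 Control animals spread from 8.87 to 11.18 and tolvaptan animals lay between 11.06 and 11.68 (1.14 ± 0.49, limma adjusted p = 0.9998), and leaving out 1 animal gave 0.69 to 1.46. In AU8033 the 3 lowest animals, 8.84 and 8.89 in Control and 8.21 in tolvaptan, were all arrays off their strain. The change there was 1.10 ± 0.49, and 1.12 without these 3 arrays, which was not called. Leaving out 1 animal at a time gave 0.59 (without tolvaptan animal 85) to 1.95 (without the tolvaptan animal at 8.21), of which the last alone was called (limma adjusted p = 0.0273).

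The smallest changes were in AU8021 (-0.82 ± 0.49), OR3609 (-0.40 ± 0.51) and AU8027 (-0.39 ± 0.49), none of which passed. In AU8021 Control animals had 10.32, 11.85, 10.97 and 10.95 and tolvaptan animals 9.71, 10.84, 9.32 and 10.93, and the first 2 Control arrays were off their strain. In OR3609 Control animals had 11.89, 11.22, 11.57 and 10.95 and tolvaptan animals 11.84, 11.07, 10.81 and 10.81. In AU8027 Control animals had 11.52, 11.42, 12.16 and 10.95 and tolvaptan animals 11.07, 11.13, 11.71 and 10.60. In all 3 strains the groups overlapped. Leaving out 1 animal gave -1.06 to -0.54 in AU8021, -0.60 to -0.15 in OR3609 and -0.56 to -0.20 in AU8027.

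**Figure D2:**
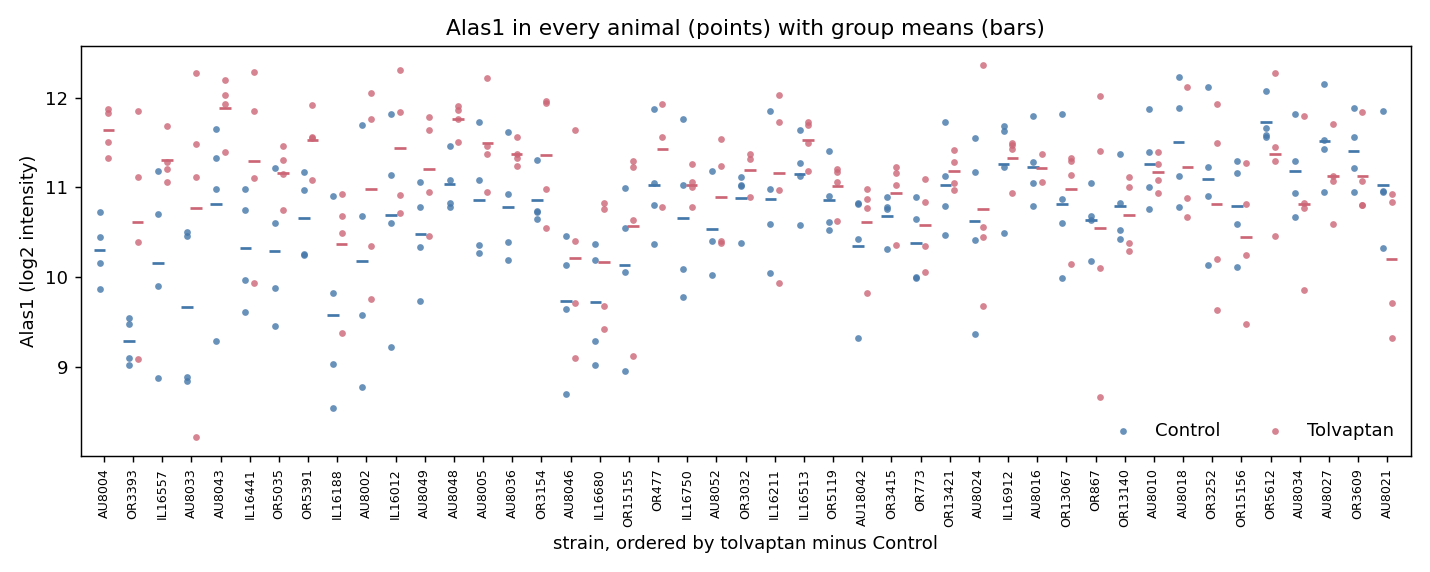
Alas1 log2 intensity of each of 354 animals (points) by strain, with Control and tolvaptan group means (bars); strains are ordered by tolvaptan minus Control, from AU8004 (1.34) to AU8021 (-0.82). Animals of 1 group often lie more than 1 log2 unit apart, and the groups overlap in all strains but AU8004 and AU8048.

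Alad in OR5119 was the single called pair. Control animals had Alad at 10.59, 9.88, 10.04 and 10.61, and tolvaptan animals at 9.89, 10.42, 9.33 and 7.83 (log2 intensity). One tolvaptan animal, number 368, was the lowest of all 354, and the others overlapped the Control animals. The change was -1.03 ± 0.29 (limma adjusted p = 0.0334), -0.50 ± 0.31 without animal 368 (adjusted p = 0.666), and no longer called without Control animal 361 (-0.83, adjusted p = 0.192), Control animal 364 (-0.91, adjusted p = 0.159) or tolvaptan animal 367 (-1.002, adjusted p = 0.106).

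Animal 368 was also low in 4 other synthesis enzymes. Its Uros was 5.88, its Urod 7.58, its Cpox 8.38 and its Fech 9.09, against 7.93 to 8.70, 8.42 to 8.76, 9.12 to 9.73 and 9.78 to 10.18 in the other 3 tolvaptan animals of OR5119. Its Ppox, 4.76, lay within the range of the others (4.74 to 5.92). Its Hmox1 was 8.76, against 4.93 to 6.01. Its Alas1, 11.20, was the highest of the 4 tolvaptan animals, and its Blvrb, 8.57, was the lowest.

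High Hmox1 with low Cpox and Uros was also seen in 2 of 4 tolvaptan animals of AU8049. Hmox1 was 5.47, 5.47, 5.88 and 5.48 in Control animals and 8.71, 8.14, 4.77 and 5.58 in tolvaptan animals 345 to 348. Cpox was 9.89, 9.54, 9.89 and 9.59 in Control and 8.36, 8.63, 10.05 and 9.49 in tolvaptan animals. Uros was 7.95, 7.72, 7.57 and 8.11 in Control and 6.45, 6.15, 8.15 and 7.88 in tolvaptan animals. Animals 345 and 346 thus stood apart from all 4 Control animals, high in Hmox1 and low in Cpox and Uros, while animals 347 and 348 lay among or near them. Alad (8.94 and 9.09 against 10.10 to 10.32 in Control), Ppox (3.88 and 3.92 against 5.09 to 5.39) and Blvrb (8.21 and 8.12 against 8.57 to 8.82) were also low in animals 345 and 346, and Alas1 was above the Control range (11.64 and 11.79 against 9.73 to 11.06).

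None of the 9 genes passed the threshold in AU8049 with all arrays. The changes by limma were 1.23 ± 0.42 for Hmox1 (adjusted p = 0.0633), -0.59 ± 0.20 for Cpox (adjusted p = 0.0618), -0.83 ± 0.30 for Ppox (adjusted p = 0.0796) and -0.68 ± 0.26 for Uros (adjusted p = 0.101), in a strain where 5.4% of all genes were called. Without the 34 arrays off their strain, none of which is in AU8049, the SE of the Hmox1 change was 0.40 in place of 0.42, and Hmox1 (adjusted p = 0.0351), Cpox (0.0446) and Ppox (0.0204) of AU8049 were called by limma, with Alad of OR5119 (-0.90, adjusted p = 0.0380).

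OR3393 held the highest Hmox1 of all 354 animals. Control animals had 5.40, 5.86, 4.98 and 5.91, and tolvaptan animals 6.29, 5.21, 10.19 and 6.23. The change was 1.44 ± 0.42 (limma adjusted p = 0.194), and it rested on animal 477. That animal also had the lowest Cpox of all 354 animals (7.77) and a Ppox of 3.41. Its Urod (8.06), Fech (9.33) and Blvrb (8.49) were the lowest of its strain. Its Alad (9.80) lay below all Control animals of the strain (10.28 to 10.67), as did that of another tolvaptan animal of its group (9.83). High Hmox1 and low Cpox did not always go together: AU8002 tolvaptan animal 28, an array off its strain, had Hmox1 at 8.55 with Cpox at 9.92 and Uros at 7.73, and OR3032 tolvaptan animal 438 had the lowest Uros of all (5.13) and Cpox at 8.03 with Hmox1 at 6.02. These animals were picked by their values, and no test was run on them.

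**Figure D3:**
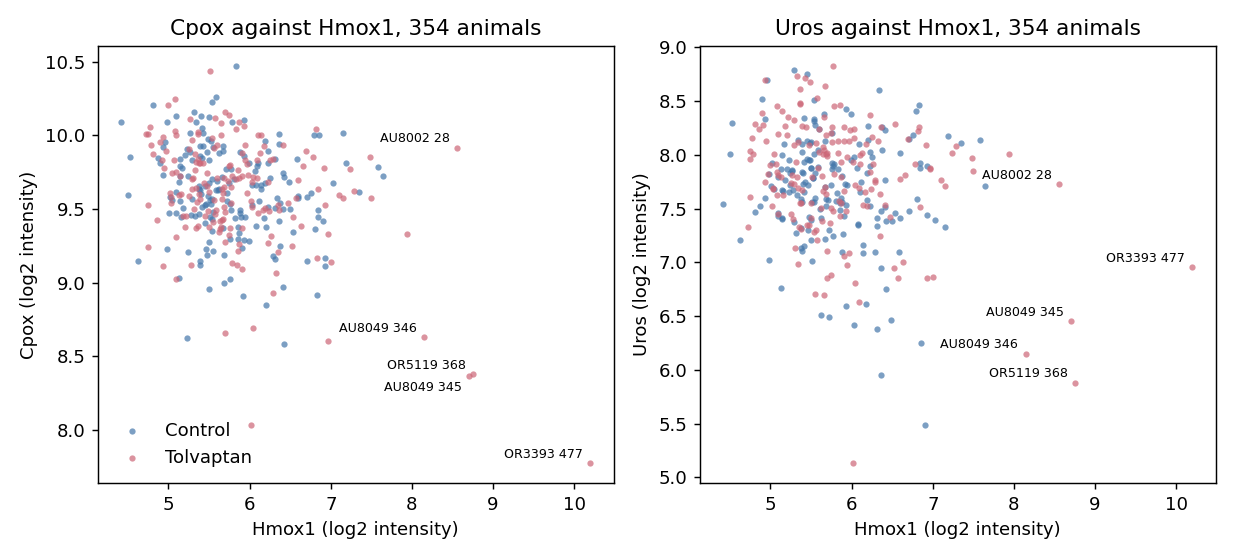
Cpox (left) and Uros (right) against Hmox1, all in log2 intensity, for 354 animals coloured by treatment. The 5 labelled tolvaptan animals lie between 8.14 and 10.19 in Hmox1. Of these, 4 are low in Cpox and AU8002 animal 28 is not low in either enzyme. The Uros of OR3393 animal 477 (6.96) is close to that of a Control animal of its strain (7.02).

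Over animals, values were taken as deviations from the fitted value for their group and scan. Hmox1 and Cpox then had a Pearson correlation of -0.47 in 175 tolvaptan animals and -0.24 in 179 Control animals, with Spearman values of -0.25 and -0.25. Hmox1 and Uros had -0.49 and -0.01, with Spearman values of -0.28 and -0.04. Alad and Ppox had 0.35 in tolvaptan and 0.68 in Control animals, and Urod and Fech had 0.59 and 0.40. Alas1 had values between -0.21 and 0.22 against the 8 other genes in Control animals and between -0.20 and 0.28 in tolvaptan animals. Both genes of each pair were read from the same array, and these values are descriptions.

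Apart from Alad in OR5119, the largest and smallest strain changes of the other genes did not pass. Uros was highest in OR5612 (0.77 ± 0.26), where tolvaptan animals (6.85 to 7.01) lay wholly above Control animals (5.48 to 6.61), and lowest in AU8049. Urod ranged from 0.48 in AU8005, where the lowest Control array (7.98) was off its strain, to -0.29 in OR13421, where 2 Control arrays were. Alad was highest in AU8024 (0.66), a strain with 3 such arrays. Cpox was highest in AU8010 (0.33) and Ppox in AU8052 (0.46), and both were lowest in AU8049. Fech, the steadiest of the 9, ranged from 0.26 in AU8004 to -0.22 in AU8049. Hmox1 was lowest in AU8048 (-0.75 ± 0.42), or in AU8033 (-1.23) without the arrays off their strain. Blvrb ranged from 0.76 ± 0.25 in AU8036, where Control animals had 9.37, 8.61, 8.64 and 9.61 and tolvaptan animals 10.15, 9.78, 9.31 and 10.02, to -0.50 ± 0.27 in OR477, where 1 Control array was off its strain. Without such arrays the lowest Blvrb change was in OR13421 (-0.66), the highest Cpox change in AU8018 (0.33) and the lowest Cpox change in OR5119 (-0.63).

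**Figure D4:**
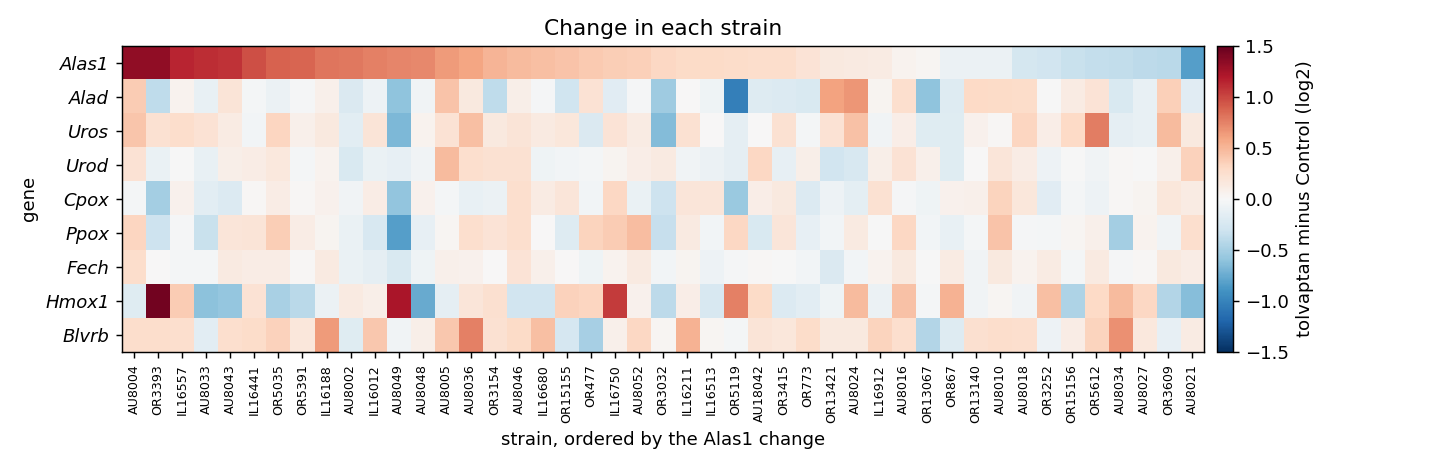
Tolvaptan minus Control in log2 intensity (colour, red higher and blue lower after tolvaptan) for 9 genes (rows) in 45 strains (columns, ordered by the Alas1 change). AU8049 is below 0 in 6 synthesis genes and OR3393 is high in Hmox1 (1.44).

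Changes of Alas1 were set against those of the 8 other genes and of Cyp2b10 and Cyp3a11, heme-containing P450s induced by drugs, and Tfrc, the transferrin receptor, over the 45 strains. None of the 11 relations passed after Benjamini-Hochberg adjustment. The nearest was Cyp2b10, with Pearson's r 0.38 (permutation p = 0.00936, adjusted p = 0.103) and Spearman's rho 0.35 (permutation p = 0.0175, adjusted p = 0.193), and r 0.34 without the 2 strains farthest from the Cyp2b10 median. Within scan 1 its r was 0.24 (permutation adjusted p = 0.378) and within scans 2 to 6 it was 0.21 (permutation adjusted p = 0.439). Among the enzymes the largest was Cpox, with r -0.26 (permutation adjusted p = 0.300) and rho -0.20 (permutation adjusted p = 0.616), and r -0.28 without 2 strains; Blvrb, which rose on average with Alas1, had r 0.11 (permutation adjusted p = 0.862). Without the 34 arrays off their strain 3 relations passed by the permutation test, those with Blvrb (r 0.38), Cyp2b10 (r 0.38) and Cyp3a11 (r 0.40), each at adjusted p = 0.0383. By Spearman's rho only that with Blvrb passed (permutation adjusted p = 0.0240, against 0.155 for Cyp2b10 and 0.220 for Cyp3a11), and the r of Cyp3a11 was 0.23 without its 2 farthest strains. In the 26 strains with none of these arrays their r was 0.28, 0.29 and 0.25 and none passed (permutation adjusted p = 0.542 for each). Cyp2b10 (0.35 ± 0.17, limma adjusted p = 0.470) and Cyp3a11 (0.10 ± 0.05, adjusted p = 0.461) did not pass on average, and Tfrc did (0.25 ± 0.06, adjusted p = 0.0181).

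Genes with the pattern most like Alas1 were found by Pearson's r among all genes tested, as a description. Over strain changes they were Lonrf1 (0.52), 1700034E13Rik (0.51), Tor1b (0.48), Dlgap5 (0.48) and Pim3 (0.47). Over Control strain means they were Cyp3a11 (0.57), Plk3 (0.56), Ssh2 (0.55), Dcun1d3 (0.54) and Usp2 (0.54). For the other genes the single most like gene over Control strain means was Hdhd3 for Alad (0.87), Ang for Uros (0.66), Dolk for Urod (0.71), Osbp for Cpox (0.69), Triap1 for Ppox (0.68), Dnajc12 for Fech (0.54), AU021092 for Hmox1 (0.65) and Acot3 for Blvrb (0.67). All are over 45 strains, and the values of a strain come from the same arrays.

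Control livers differed between strains in all 9 genes by limma's F test, as did 74.9% of all genes tested. The strain means below are adjusted for scan by the fit, and plain means of the animals give another order in places. Of the strains named for their Control means, AU18042, AU8002, AU8018, AU8046, IL16188, IL16211, IL16441, IL16750, OR13421, OR15155 and OR477 held Control arrays off their strain. Both kinds of mean include these arrays, and means without them are not given. Alas1 had the widest range of strain means, 5.97-fold between OR5612 (11.53, log2 intensity) with AU8027 next (11.32), and OR3393 (8.95) with AU8046 next lowest (9.54). No gap between neighbouring strains of Alas1 exceeded the spread between animals of a group (residual SD 0.70); the largest, 0.59, lay between AU8046 and OR3393. By plain means the range was 5.44-fold, and IL16188 (9.57) was next to OR3393 (9.28). Hmox1 ranged 4.97-fold, from AU8043 (7.28) and OR3032 (6.66) to AU18042 (5.19) and IL16557 (4.97), and the gap of 0.62 below AU8043 exceeded its residual SD of 0.60. By plain means AU8043 (6.93) was followed by AU8027 (6.62), the range was 3.996-fold, and no gap exceeded the residual SD. Uros ranged 4.75-fold, from OR477 (8.39) and IL16188 (8.36) to OR15156 (6.61) and OR5612 (6.15), and the gap of 0.46 above OR5612 exceeded its residual SD of 0.36, as did 2 gaps between plain means.

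The other ranges were smaller. Ppox ranged 3.42-fold, with AU8043 (5.75) and OR15155 (5.72) highest and IL16441 (3.99) and OR3415 (3.98) lowest. Blvrb ranged 3.14-fold, with AU8048 (10.22) and AU8002 (10.15) highest and AU8052 (8.77) and OR5612 (8.57) lowest. Alad ranged 3.13-fold, with IL16188 (11.29) and IL16750 (11.22) highest and AU8004 (9.82) and AU8052 (9.65) lowest. These 3 genes had no neighbouring strains further apart than their residual SD. Cpox ranged 1.84-fold, with OR3415 (9.89) and OR3252 (9.85) highest and AU8010 (9.05) and OR15155 (9.02) lowest. By plain means AU8036 (9.96) and AU8018 (9.95) were highest. Urod ranged 1.79-fold, with OR13421 (8.79) and AU18042 (8.75) highest and AU8004 (8.16) and AU8010 (7.96) lowest, and the last gap, 0.21, exceeded its residual SD of 0.19, which the gap of the plain means of the same strains (0.14) did not. Fech ranged 1.51-fold, with AU8043 and IL16211 (both 9.81) highest and OR3154 (9.32) and AU8004 (9.22) lowest. By plain means the highest strain was OR15155 for Ppox (5.88), AU8002 for Blvrb (9.99), OR15156 for Urod (8.83) and IL16211 for Fech (9.88), and the lowest was OR773 for Ppox (4.02), AU8004 for Alad (9.69) and AU8010 for Cpox (9.21).

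**Figure D5:**
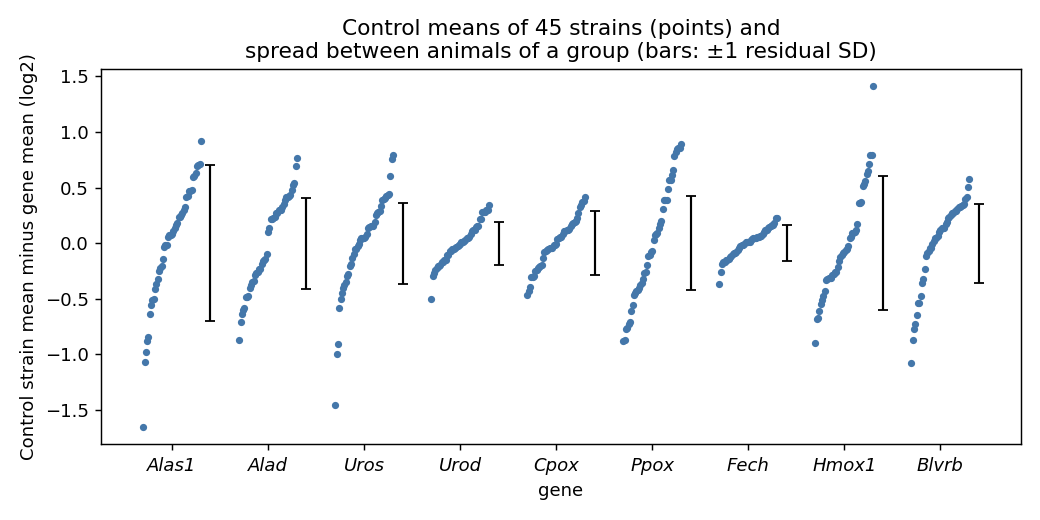
Scan-adjusted Control means of 45 strains (points, sorted) minus the mean of each gene, in log2 intensity, with bars of ±1 residual SD for the spread between animals of a group. Alas1 spans the widest range and also has the largest residual SD (0.70); Fech has the smallest of both (residual SD 0.16).

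Ranked by their F among all genes, Ppox (percentile 94.7) and Uros (94.1) differed most between strains for their spread, followed by Blvrb (89.6), and Cpox (49.7) lay in the middle of all genes. Alas1, with the widest range, was at percentile 59.5. Over Control strain means the 36 pairs of these genes were weakly related, the largest being Alad with Fech (Pearson 0.38); Alad with Blvrb and Ppox with Hmox1 were at 0.35. Over strain changes the largest were Alad with Uros (0.59), Ppox with Fech (0.58) and Urod with Fech (0.56), over the same 45 strains.

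Where a gene had further probe sets, these did not always move as the one used did. Fech had 4, whose changes ranged from 0.02 to 0.04, and the third brightest (mean 9.10 in Control) had a correlation of 0.05 with the brightest over Control strain means. Cpox had 3, with correlations of 0.55 and 0.73 and changes of -0.05 and 0.06 for the 2 dimmer ones. The second Alad probe set had a correlation of 0.68 and a change of -0.07 ± 0.06. The second Uros probe set was dim, above the array median on 173 of 354 arrays, and had a change of -0.04 ± 0.03, below 0 where the brightest was above it. Alas1, Urod, Ppox, Hmox1 and Blvrb had 1 probe set each.

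Among further genes of the pathway few were called. Of 13 tested genes (18 listed) of heme synthesis and mitochondrial supply none was called, and the median change was 0.01; Alas2, the erythroid first enzyme, had the largest (-0.10 ± 0.06, limma adjusted p = 0.646). Of 15 tested genes (18 listed) of heme breakdown, uptake and export 1 was called, Hp, haptoglobin, which binds free hemoglobin and is also an acute phase protein (0.07 ± 0.01, limma adjusted p = 0.00357); the median was 0.01. Of 10 tested regulators (15 listed) none was called, and the largest was Nr1d2, a clock repressor, at 0.12 ± 0.07 (limma adjusted p = 0.628). Of 19 tested heme proteins of liver (21 listed) none was called. The largest change was that of Cyp2b10 given above (0.35 ± 0.17), about as large as that of Alas1 but with a wider SE. The regulators Ppargc1a and Nr1d1 were not used here.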

How the data were processed

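Liver RNA of 354 mice was measured on 1 Affymetrix HT_MG-430 PM array each. The deposited values are log2 intensities that the authors made by RMA in Affymetrix Expression Console, per the submitters' processing notes; versions are not given in the sources used here, and the scanner files were not used here. Strain was taken from the source label and scan from the scan date. Of 42597 probe sets, 27691 had 1 gene symbol, 493 several and 14376 none; 27494 of the first matched RefSeq (GRCm38.p6), and 37 were controls. A gene was represented by its brightest single-symbol probe set, tested if above the array median on at least 4 arrays. limma 3.58.1 (R 4.3.3) fitted 1 mean per strain and treatment plus scan, with Benjamini-Hochberg adjustment over 14125 genes and a threshold of 0.05. Permutation tests over strains drew 100000 resamples (SciPy 1.17.1); those over animals were exact. The fit was tested on simulated data. Precision is limited by how many arrays there are. The 9 genes, the lists and the tests were chosen with earlier results of these data known. Named were all 9 genes, their extreme strains (for Alas1 4 highest and 3 lowest) and every called pair. From each list the called genes or the largest change were named, and Blvra beside Blvrb. Ppargc1a, Nr1d1 and Por, also planned beside Alas1, were not used here, which left 11 relations of 14. Animals of a group are separate mice, numbered in accession order, and these numbers pair nothing.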

Additional observations from a re-analysis of the deposited data

Results flagged for a closer look

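Of the 44 groups of 4 animals whose strain is named above for its change, 2 held an animal whose gap to the nearest other exceeded Dixon's 95% limit; chance alone gives about 5% of groups. Ppox in the Control group of AU8049 was 5.09 in animal 344 against 5.36 to 5.39 in the other animals. Uros in the tolvaptan group of OR5612 was 7.01 in animal 275 against 6.85 to 6.86. Neither array was off its strain.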

How the results depend on the processing

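Apart from the fits without scan 2 and those without 1 replicate of every group, given below, the rises of Alas1 (0.32 to 0.39) and Blvrb (0.14 to 0.22) passed limma's threshold in the 16 other settings run, among them no scan term, no filter, quantile normalization and strains as the unit (highest adjusted p 0.0262 and 0.0336). Leaving out each strain in turn gave 0.32 to 0.37 and 0.16 to 0.19, all called. Without scan 2, which left 1 Control animal in 16 strains and 1 tolvaptan animal in 14 (assumed to vary like other groups), Alas1 was 0.44 and called. Blvrb was 0.16 and not called. Ppox passed in the interaction, but so did many more of all genes than with all arrays. With groups of 1 animal in this fit, that pass is not read as a result about Ppox. Some of these single Control arrays, as in AU18042 and IL16750, were off their strain. Leaving out 1 animal of every group, by its place in the accession order (replicates 1 to 4), gave 0.31 to 0.37 for Alas1 and 0.15 to 0.21 for Blvrb, with limma adjusted p up to 0.376 for both; 0 to 2 of the 9 were called. The fit without replicate 1 called none of them and 3 genes in all, and the fit without replicate 2 called 1 and 14 genes in all. Of 9 genes, 8 or 9 differed between Control strains in these 4 fits, as did 8423 to 9629 of all 14125 genes.

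Single-strain calls numbered 4 without the arrays off their strain (3 of them in AU8049) and 0 with no scan term. Over all 635625 gene and strain pairs these fits called 2030 and 1328. Without scan 1 the calls were Uros, Cpox, Ppox and Hmox1 in AU8049, and without scan 2 Alad in OR5119 and Ppox in AU8049. Without scan 2 Ppox in AU18042 and Ppox and Urod in IL16750 were also called. These 2 strains then held 1 array per arm, and the Control array (animals 94 and 124) was off its strain. Over all genes the fit without scan 1 called somewhat more pairs than the fit with all arrays, and the fit without scan 2 called far more. Without replicate 4 the calls were the 4 of AU8049 and Hmox1 in OR3393, among 2157 pairs over all genes. Without replicate 3 they were Uros, Cpox and Hmox1 in AU8049, among 3314. Without the arrays off their strain 3 Alas1 relations passed by Pearson's r in place of 0, and 1 by Spearman's rho. Signs turned only for genes that were not called: Cpox was 0.00052 without the arrays off their strain, -0.025 to 0.00041 over the 4 fits without 1 replicate, 0.0033 without AU8049, 0.0015 without OR3393, 0.0019 without OR5119, 0.016 without AU8049 and OR5119 and 0.0023 with endothelial markers in the model; Alad was 0.011 without scan 2, -0.053 to 0.0052 over the 4 fits without 1 replicate and 0.0070 without AU8049 and OR5119; Uros was -0.039 by its second probe set. The single-strain calls without a scan or replicate, the plain Control means, the settings without AU8049, alone or with OR5119, and those with markers in the model were chosen after seeing the data; the cause of these differences was not tested. The labels give the animals of the 2 arms no shared numbers, so arms were paired by strain only, in the fit with strains as the unit and in scan 1.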

Other observations

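Over the 45 strain changes the gene most like Hmox1 was Chac1 (Pearson 0.76), a glutathione-degrading enzyme, and that most like Blvrb was Ephx1 (0.69), an epoxide hydrolase. Both were named after their values were seen, and neither passed on average by limma (0.02 ± 0.09, adjusted p = 0.974, and 0.11 ± 0.03, adjusted p = 0.0972). The Hmox1 change also had correlations of 0.45 with the change of the mean of 3 neutrophil markers and 0.41 with that of 4 bile duct markers, and of 0.22 with Kupffer cell markers; the part of these cells in the Hmox1 values was not tested. In AU8027 Hmox1 was above 7 in Control animal 304 (7.34) and in tolvaptan animals 306 (7.496) and 308 (7.29), with Cpox between 9.58 and 9.62, so high Hmox1 without low Cpox occurred in both arms of that strain.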
